A study of Mus musculus with 8 samples.

Results

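Rhox genes are homeobox genes that lie side by side on the mouse X chromosome and are expressed mainly in reproductive tissues. Of the 23983 genes in the deposited RNA-seq table of mouse testis, 6 were chosen by their symbols, Rhox1, Rhox5, Rhox8, Rhox10, Rhox11 and Rhox13. A further 25 rows of the table carry a Rhox symbol. Testes came from C57BL/6J mice without a transgene at day 12 (d12), day 16 (d16) and day 24 (d24) after birth and from adult mice of an age not stated in the labels, and total RNA was sequenced with strand information retained. Each of the 4 stages has 1 library, so the spread between animals is unknown and stages were not compared by a test. The study used these stages to follow the first wave of spermatogenesis, in which germ cells enter meiosis and then become haploid spermatids on a known timetable.

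Homeobox genes encode transcription factors that bind DNA through a conserved domain. The Rhox cluster is described in 3 neighbouring groups, alpha (Rhox1 to Rhox4), beta (Rhox5 to Rhox9) and gamma (Rhox10 to Rhox13), and several of its genes are expressed in either the somatic or the germ cells of the testis. Rhox5, the founding gene of the cluster, and Rhox8 are transcribed in Sertoli cells, the somatic cells that nurse the germ cells, and both respond to androgen. Rhox10 is expressed in spermatogonia, the mitotic germ cells, where it acts in the establishment of spermatogonial stem cells. Rhox13 encodes a germ cell protein. Genes on the X chromosome are silenced in meiotic spermatocytes, in a process known as meiotic sex chromosome inactivation. In whole testis, fewer cells of a type and less RNA per cell cannot be told apart, which holds for every value that follows.

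All 6 genes lie between positions 37213804 and 38129966 of the X chromosome (GRCm38), a span of 916163 bp. Rhox1 opens the cluster at chrX:37213804-37222258 on the minus strand. Rhox5 (chrX:37754608-37808878, plus strand) has 5 exons in its RefSeq transcript of 806 nt, and its longest intron has 50184 bp. Rhox8 follows at chrX:37874780-37878944 on the minus strand. The other 3 members stand together at the far end, Rhox10 at chrX:38066475-38071688 (plus), Rhox11 at chrX:38076598-38085139 (minus) and Rhox13 at chrX:38120840-38129966 (plus). No other curated gene overlaps any of the 6. Stretches of 50 bases, the length of 1 read, were taken within single exons and searched for in the genome. None of those from Rhox1, Rhox5, Rhox10, Rhox11 or Rhox13 occurred outside the gene itself. In Rhox8, 20.8% of such stretches occur elsewhere, so part of its reads could have been placed at another position.

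The 250 bases before the annotated start of Rhox5, Rhox13 and Rhox11 are shown because these genes had the flattest, a falling and a rising series of values among the members. Sequences are from RefSeq on GRCm38.p6, 5′ to 3′ on the strand of the gene. They cover chrX:37754358-37754607 (plus strand) for Rhox5, chrX:38120590-38120839 (plus strand) for Rhox13 and chrX:38085140-38085389 (minus strand) for Rhox11. Capitals mark TGTTCT, a hexamer found in steroid hormone response elements, and CCGGAA, the core bound by ETS factors, on either strand.
Rhox5: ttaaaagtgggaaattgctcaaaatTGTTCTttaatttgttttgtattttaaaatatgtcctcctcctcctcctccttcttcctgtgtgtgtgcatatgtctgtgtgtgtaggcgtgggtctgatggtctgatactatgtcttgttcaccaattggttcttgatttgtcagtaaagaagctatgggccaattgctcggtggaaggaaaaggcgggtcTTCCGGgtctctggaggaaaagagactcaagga
Rhox13: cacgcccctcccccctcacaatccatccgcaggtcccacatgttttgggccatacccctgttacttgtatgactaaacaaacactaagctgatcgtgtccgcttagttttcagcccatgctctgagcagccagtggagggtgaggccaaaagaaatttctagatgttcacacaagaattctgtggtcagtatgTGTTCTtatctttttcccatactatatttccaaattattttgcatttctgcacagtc
Rhox11: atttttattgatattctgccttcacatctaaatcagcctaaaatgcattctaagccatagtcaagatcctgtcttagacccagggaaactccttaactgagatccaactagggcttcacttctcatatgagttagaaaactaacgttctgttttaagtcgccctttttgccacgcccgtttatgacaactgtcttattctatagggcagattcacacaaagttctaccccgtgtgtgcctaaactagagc

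The hexamer TGTTCT occurs in 16.1% of 32851 windows of this length before annotated starts in the mouse genome. Of the 5 members with a window (Rhox1, Rhox5, Rhox10, Rhox11 and Rhox13), 3 hold it, Rhox5 at position -225, Rhox1 at -81 and Rhox13 at -57, counted from the start of the transcript. CCGGAA occurs in 12.03% of all windows and, among the members, in that of Rhox5, at position -33. The cyclic AMP response element TGACGTCA (1.55% of all windows), the GC box GGGCGG (32.7%) and the TATA box TATAAA (12.4%) are in none of the 5. The windows hold 4 CpG dinucleotides for Rhox5 and Rhox13, 5 for Rhox11, 8 for Rhox10 and 0 for Rhox1, where the median window holds 6. These matches of letters are a description of the sequences. Rhox5 is known to be transcribed from more than 1 promoter, and its window here is the one before the annotated start only. The gene-level values do not tell transcripts from different starts apart.

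Levels are given in FPKM, fragments per kilobase of transcript after a scaling of each library, a unit that allows genes of different length to be compared. How the libraries were scaled is not stated in the sources used here. Fragments behind the values were recovered from the deposited numbers, and the 95% intervals given with them are Poisson intervals that cover counting error alone. At d12, Rhox8 (30.3 FPKM) and Rhox13 (29.9 FPKM) were the highest of the 6 and were indistinguishable, followed by Rhox5 (20.3 FPKM), then by Rhox1 (4.98 FPKM) and Rhox10 (4.62 FPKM) with overlapping intervals, and last by Rhox11 (0.496 FPKM). In adult testis the order was different. Rhox5 was highest at 16.7 FPKM, Rhox11, Rhox8 and Rhox13 followed at 7.24, 6.79 and 5.19 FPKM with overlapping intervals, and Rhox1 and Rhox10 were at 0.636 and 0.590 FPKM, also with overlapping intervals. Together, the 6 genes made up 72.5%, 67.7%, 61.9% and 64.9% of the summed FPKM of all 31 Rhox rows from d12 to adult.

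**Figure D1:**
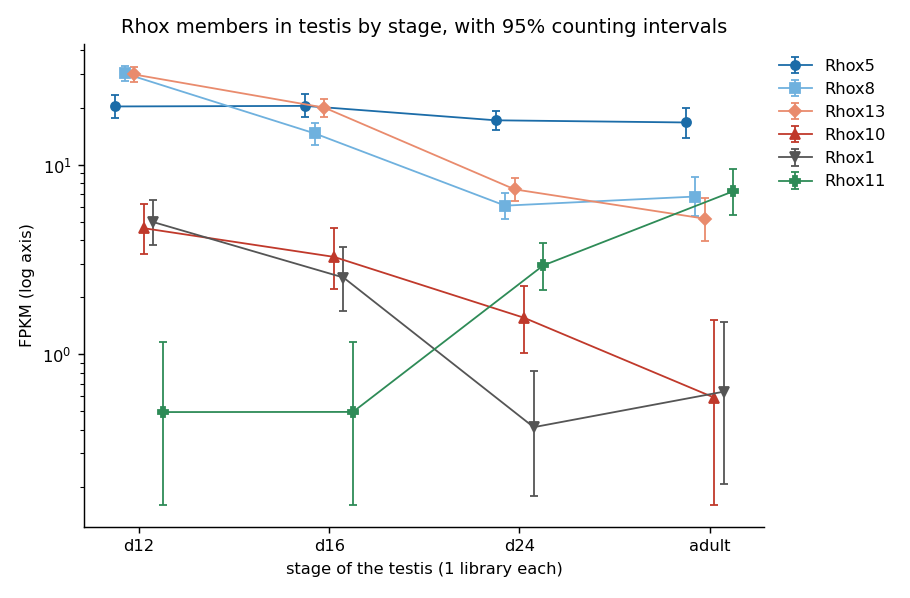
FPKM (log axis) of the 6 Rhox genes by stage, 1 library per stage, with points for the deposited values, lines joining the stages of a gene and bars for 95% counting intervals. Rhox5 stays between 16.7 and 20.4 FPKM, Rhox8, Rhox13, Rhox10 and Rhox1 are lower in adult testis than at d12, and Rhox11 is higher.

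Rhox5, a Sertoli cell transcription factor whose loss is known to lower sperm number and motility, had the smallest range of the 6. Its level was 20.3 FPKM at d12 (205 fragments, 17.6 to 23.3), 20.4 FPKM at d16 (206 fragments, 17.7 to 23.4), 17.1 FPKM at d24 (303 fragments, 15.2 to 19.2) and 16.7 FPKM in adult testis (120 fragments, 13.8 to 19.96). All 4 intervals overlap. The adult level was 0.823 times that of d12 (exact 95% interval 0.651 to 1.03), so a change was not detectable at this depth in values as deposited. This depends on the scaling between libraries. With every library rescaled to the same FPKM sum, the difference in log2(FPKM + 0.1) between adult and d12 was -1.50 instead of -0.28, and with division by the upper quartile it was -1.21.

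Rhox8, the second Sertoli member, had its highest value at d12. It measured 30.3 FPKM at d12 (455 fragments, 27.5 to 33.1), 14.6 FPKM at d16 (219 fragments, 12.7 to 16.6), 6.08 FPKM at d24 (160 fragments, 5.16 to 7.07) and 6.79 FPKM in adult testis (73 fragments, 5.34 to 8.56). The first 3 intervals are apart from each other, and those of d24 and adult overlap. The d16 level was 0.482 times that of d12 (0.409 to 0.568), the d24 level 0.416 times that of d16 (0.337 to 0.512), and the adult level 1.12 times that of d24 (0.840 to 1.49). From d12 to adult testis, Rhox8 was 4.46-fold lower (3.46 to 5.76). This log2 difference of -2.14 became -3.36 with the same FPKM sum and -3.07 with the upper quartile.

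The 2 Sertoli members therefore changed places. The ratio of Rhox5 to Rhox8, which does not depend on the scaling between libraries, was 0.670 at d12 (0.567 to 0.794), 1.40 at d16 (1.15 to 1.70), 2.82 at d24 (2.32 to 3.44) and 2.46 in adult testis (1.82 to 3.33). The interval lies below 1 at d12 and above 1 at each later stage.

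Rhox13, the germ cell member with the highest level, was 29.9 FPKM at d12 (469 fragments, 27.2 to 32.7), 19.97 FPKM at d16 (313 fragments, 17.8 to 22.3), 7.40 FPKM at d24 (204 fragments, 6.42 to 8.49) and 5.19 FPKM in adult testis (58 fragments, 3.94 to 6.71). Each stage was lower than the one before it. The ratios of successive stages were 0.669 (0.578 to 0.773), 0.371 (0.309 to 0.444) and 0.700 (0.514 to 0.942), and the intervals of all 3 lie below 1. Adult testis was 5.76-fold lower than d12 (4.38 to 7.70), and the log2 difference of -2.50 became -3.72 with the same FPKM sum and -3.43 with the upper quartile.

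Rhox10, the spermatogonial member, was 4.62 FPKM at d12 (44 fragments, 3.36 to 6.21), 3.26 FPKM at d16 (31 fragments, 2.22 to 4.63), 1.56 FPKM at d24 (26 fragments, 1.02 to 2.28) and 0.590 FPKM in adult testis (4 fragments, 0.161 to 1.51). The value was lower at each successive stage, although the steps from d12 to d16 (ratio 0.706, 0.431 to 1.14) and from d24 to adult (ratio 0.379, 0.0961 to 1.09) were within counting error. Adult testis was 7.83-fold lower than d12 (2.85 to 30.0). Rhox13 stood above Rhox10 in every library, by 6.46-fold, 6.12-fold, 4.76-fold and 8.79-fold from d12 to adult.

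Rhox1, the first gene of the cluster, was 4.98 FPKM at d12 (55 fragments, 3.75 to 6.47), 2.54 FPKM at d16 (28 fragments, 1.69 to 3.67), 0.413 FPKM at d24 (8 fragments, 0.178 to 0.813) and 0.636 FPKM in adult testis (5 fragments, 0.206 to 1.48). The low point at d24 and the adult value do not differ beyond counting error (ratio 1.54, 0.396 to 5.34). Adult testis was 7.83-fold lower than d12 (3.16 to 25.1).

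Rhox11 was the one member with a higher value in adult testis than at d12. It was 0.496 FPKM at d12 (5 fragments, 0.161 to 1.16), 0.497 FPKM at d16 (5 fragments, 0.161 to 1.16), 2.94 FPKM at d24 (52 fragments, 2.196 to 3.86) and 7.24 FPKM in adult testis (52 fragments, 5.41 to 9.50). The d24 level was 5.92 times that of d16 (2.38 to 19.0), and the adult level 2.46 times that of d24 (1.64 to 3.69) and 14.6 times that of d12 (5.87 to 46.9). Its neighbour Rhox10 had its lowest value in the library in which Rhox11 had its highest.

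To read these changes against the whole table, a gene was counted as higher or lower where log2(FPKM + 0.1) differed by at least 1, a 2-fold difference, among the 13901 genes that averaged 1 FPKM or more over the 4 libraries. All 6 members passed this filter. From d12 to d16, 0 members were higher and 1 (Rhox8) was lower, where 12.6% of all genes were higher and 3.67% lower. From d16 to d24, Rhox11 was higher and 4 members (Rhox1, Rhox8, Rhox10 and Rhox13) were lower, against 27.5% of genes higher and 8.45% lower. From d24 to adult, Rhox11 was higher and Rhox10 lower, against 11.4% higher and 2.2% lower. Over the whole interval from d12 to adult, Rhox11 was higher, Rhox1, Rhox8, Rhox10 and Rhox13 were lower and Rhox5 was neither, against 35.7% of genes higher and 23.1% lower. The background split depends on the scaling, since 4965 genes were higher and 3216 lower from d12 to adult in values as deposited, 3191 and 6996 with libraries rescaled to the same sum, and 3522 and 6147 with division by the upper quartile. From d16 to d24, the split of 3824 higher and 1174 lower became 2662 and 4263 with the same sum and 2806 and 3739 with the upper quartile. The other 2 steps are treated with the processing alternatives.

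X-linked genes as a class were lower in adult testis than at d12. Of 613 X-linked genes past the filter, 23.8% were higher and 55.8% lower in adult testis than at d12, with a median log2 difference of -1.23 against 0.20 for all genes. The step from d16 to d24 had 22.3% of them higher and 30.2% lower, whereas from d24 to adult 16.3% were higher and 4.57% lower. The members' median log2 difference from d12 to adult was -2.32. Rhox1 (-2.79), Rhox10 (-2.77), Rhox13 (-2.50) and Rhox8 (-2.14) lie below the X-linked median, and Rhox5 (-0.28) and Rhox11 (3.62) lie above it. The rescaling alternatives shift all genes alike and leave this order as it is, but they change the sizes. With the same sum and the upper quartile, the difference was -4.00 and -3.72 for Rhox1, -3.99 and -3.71 for Rhox10, and 2.41 and 2.69 for Rhox11.

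**Figure D2:**
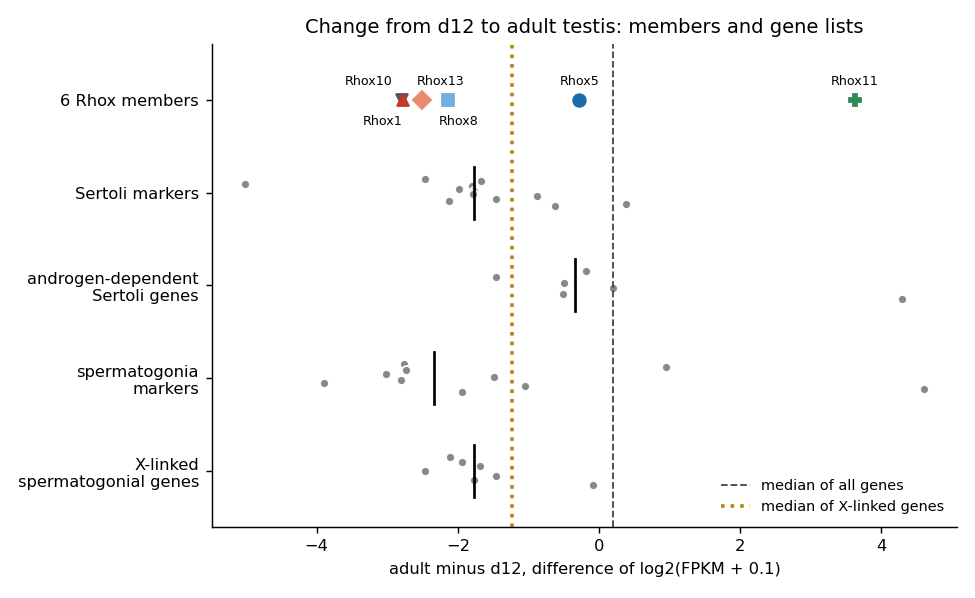
Difference in log2(FPKM + 0.1) between adult and d12 testis for the 6 Rhox genes (coloured symbols) and for the genes of 4 lists that averaged 1 FPKM or more (grey points, 1 per gene, with a black bar at the list's median), 1 library per stage. The dashed line is the median of all genes at 0.20 and the dotted line that of X-linked genes at -1.23, and 4 of the 6 Rhox genes lie to the left of both.

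The Sertoli members were then set against the germ cell members within each library, a comparison that needs no scaling between libraries. The summed FPKM of Rhox5 and Rhox8 was 50.5, 35.0, 23.2 and 23.5 from d12 to adult. The sum of Rhox10 and Rhox13 was 34.5, 23.2, 8.96 and 5.78 FPKM in the same order. Their ratio was 1.46 at d12 (1.303 to 1.65), 1.51 at d16 (1.304 to 1.74), 2.59 at d24 (2.204 to 3.04) and 4.06 in adult testis (3.04 to 5.43). The ratios of d12 and d16 overlap, and those of d24 and adult overlap narrowly, while both lie above those of the earlier stages.

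Rhox5 and Rhox8 contributed to this ratio in different ways. Rhox5 over Rhox13 was 0.678 at d12 (0.574 to 0.803), 1.02 at d16 (0.855 to 1.22), 2.31 at d24 (1.93 to 2.77) and 3.22 in adult testis (2.33 to 4.48), so that the germ cell gene was the higher of the pair at d12 and the Sertoli gene at d24 and in the adult. Rhox8 over Rhox13 was 1.013 at d12 (0.888 to 1.15), 0.731 at d16 (0.611 to 0.870), 0.821 at d24 (0.661 to 1.011) and 1.31 in adult testis (0.917 to 1.89). Rhox8 and Rhox13 thus stayed within a narrow band of each other, with an interval clear of 1 at d16 alone. Rhox5 over Rhox10 was 4.38, 6.25, 11.0 and 28.3 from d12 to adult, the last with an interval of 10.8 to 105.5 because Rhox10 rests on 4 fragments there. Rhox8 over Rhox10 was 6.55, 4.47, 3.90 and 11.5. The value was higher in adult testis than at d12 in all 4 pairs, with overlapping intervals in the pairs with Rhox8. From d16 to d24, the intervals were apart for Rhox5 over Rhox13 and overlapped in the other 3 pairs.

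**Figure D3:**
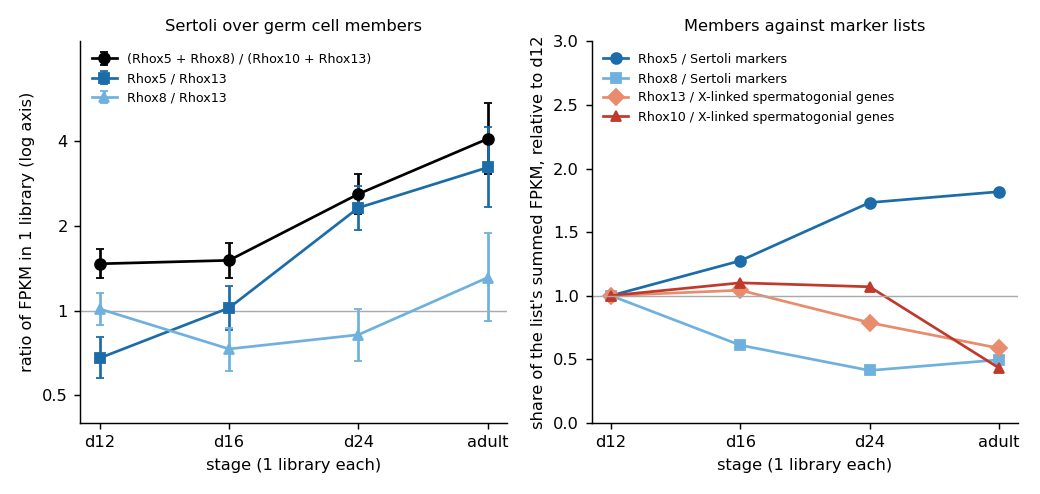
Left, ratio of FPKM within each library (log axis) of the summed Sertoli members over the summed germ cell members, and of Rhox5 and Rhox8 over Rhox13, with bars for 95% counting intervals, the summed ratio going from 1.46 at d12 to 4.06 in adult testis. Right, level of a member as a share of the summed FPKM of a gene list in the same library, set to 1 at d12 (Rhox5 and Rhox8 against Sertoli markers, Rhox13 and Rhox10 against X-linked spermatogonial genes), with Rhox5 reaching 1.82 and Rhox8 0.495 against Sertoli markers in adult testis.

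Lists of cell type markers were read beside these values, and their part in the changes of the members was not tested. Over all genes, 35.7% were higher and 23.1% lower in adult testis than at d12, which is the background for the count of each list. Counts of each list are for values as deposited, and the rescalings, which lower every adult against d12 difference alike, change some of them. Shares within a library and the order of ratios do not depend on the scaling. Of 12 Sertoli markers, 0 were higher and 9 lower in adult testis than at d12, and the sum of the list was 1613, 1274, 787.0 and 730.5 FPKM from d12 to adult. Examples are Sox9, the factor that specifies Sertoli cells (12.2, 7.64, 4.75 and 2.14 FPKM), Wt1, a factor these cells require (40.3, 29.7, 14.8 and 12.7 FPKM), and Cldn11, a component of their tight junctions (95.4, 71.2, 42.0 and 28.0 FPKM). Amh, the hormone of immature Sertoli cells, was 3.12 FPKM at d12 and listed at 0 in adult testis. The 3 markers that were neither were Gata1 (9.32, 6.94, 6.63 and 5.01 FPKM), Trf (6.61, 6.93, 6.05 and 8.66 FPKM) and Clu (706.7, 609.0, 419.6 and 456.6 FPKM). Clu was the highest gene of the list at every stage, so shares of the summed list rest on it in large part. Rhox5 amounted to 1.26%, 1.601%, 2.18% and 2.28% of the summed list from d12 to adult, and its ratio of adult to d12 was above that of 11 of the 12 markers. Rhox8 amounted to 1.88%, 1.15%, 0.772% and 0.929%, and its ratio of adult to d12 was above that of 2 of the 12. The list's median ratio was 0.290, next to 0.823 for Rhox5 (0.651 to 1.03) and 0.224 for Rhox8 (0.174 to 0.289). The interval of Rhox8 includes the ratios of Sox9, Aard, Dhh, Fshr and Inhbb, so its order among these is within counting error.

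Genes known as androgen-dependent in Sertoli cells were closer to Rhox5. Of 6 such genes with a row in the table, 1 was higher, 1 lower and 4 neither in adult testis against d12 as deposited. Their median log2 difference was -0.34. With libraries rescaled to the same FPKM sum, the 4 that were neither would be lower. Eppin, which encodes a protease inhibitor, was 24.9, 25.6, 20.4 and 21.8 FPKM, and Tpd52l1 was 48.7, 48.2, 32.4 and 34.1 FPKM. Tubb3, a beta tubulin, was the lower one (29.9, 19.0, 16.7 and 10.8 FPKM), and Cldn3, a tight junction claudin, the higher one (0.126, 0.317, 1.77 and 4.35 FPKM). Rhox5 amounted to 17.6%, 18.5%, 20.7% and 20.1% of the summed list from d12 to adult, and Rhox8 to 26.2%, 13.3%, 7.36% and 8.16%. The adult to d12 ratio of Rhox5 was above that of 3 of the 6 genes and that of Rhox8 above none of them. The interval of Rhox5 (0.651 to 1.03) includes the ratios of Eppin, Drd4 and Tpd52l1, so its order among these is within counting error.

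Of the transcription factors listed as regulators of Rhox5, Gabpa, Sp1, Sp3 and Elf1 were neither higher nor lower from d12 to adult as deposited. Either rescaling adds the same negative amount to every gene's log2 difference, which would put all of these past the 2-fold limit as lower. Leydig cells make testicular androgen. Of 7 Leydig markers, 4 were higher and 0 lower in adult testis than at d12 as deposited, against 35.7% and 23.1% of all genes. With the same FPKM sum, the markers Cyp17a1 and Cyp11a1 would be inside the limit and Star would be lower. The sum of these markers was 134.9, 107.0, 191.3 and 607.9 FPKM. Cyp17a1, an enzyme of androgen synthesis, was 39.6, 24.6, 45.0 and 181.9 FPKM. Of 6 genes described as downstream of Rhox5, 5 passed the filter, of which 2 were higher, 1 lower and 2 neither from d12 to adult. These counts are near the shares over all genes (35.7% higher and 23.1% lower). Ins2, an insulin gene, was the lower one at 3.36, 1.77, 0.101 and 0 FPKM from d12 to adult, while Unc5c, a netrin receptor repressed by Rhox5, stayed at or below 0.145 FPKM in all 4 libraries.

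The germ cell members were set against spermatogonial genes. Of 10 spermatogonia markers past the filter, 1 was higher and 8 were lower in adult testis than at d12, with a median log2 difference of -2.34. Gfra1 was neither, at 1.20, 0.814, 1.18 and 2.41 FPKM, and its log2 difference of 0.952 was just inside the limit for a higher gene. Stra8, required for entry into meiosis, was 86.4, 49.2, 19.0 and 12.3 FPKM, and Zbtb16, a factor of stem cell maintenance, was 10.8, 6.23, 2.81 and 1.51 FPKM. The higher one was Dmrtb1 (7.07, 17.6, 169.8 and 173.5 FPKM), which dominates the sum of the list at d24 and in adult testis. As a share of that sum, Rhox13 was 11.7%, 12.1%, 3.00% and 2.27%, and Rhox10 1.81%, 1.98%, 0.630% and 0.258%. The share of Rhox13 in adult testis was 0.193 times that at d12, but 0.777 times without Dmrtb1 in the list, an alternative added after the values were seen. For Rhox10 the same numbers were 0.142 and 0.571.

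X-linked spermatogonial genes were also lower. Of 7 such genes with a row, 0 were higher and 6 lower in adult testis than at d12. Among all X-linked genes past the filter, 23.8% were higher and 55.8% lower. Tex11, which acts in meiotic recombination, was 77.5, 54.1, 20.3 and 13.9 FPKM, and Usp26, a ubiquitin protease, was 39.99, 25.1, 10.9 and 9.17 FPKM. Rhox13 amounted to 6.14%, 6.40%, 4.83% and 3.60% of the summed list and Rhox10 to 0.950%, 1.05%, 1.02% and 0.410%. The adult to d12 ratios of the 7 genes ranged from 0.179 to 0.942, next to 0.174 for Rhox13 (0.130 to 0.229) and 0.128 for Rhox10 (0.0333 to 0.351). The interval of Rhox13 includes Tex11 and that of Rhox10 includes 5 of the 7 genes, so the order is within counting error for these.

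Markers of the later germ cells were also read, and their part in the members' changes was not tested. All 6 pachytene markers and all 6 spermatid markers were higher in adult testis than at d12, with median log2 differences of 8.20 and 10.6. The sum of the pachytene list was 48.8, 839.6, 3874 and 4808 FPKM, and that of the spermatid list 12.9, 7.65, 1852 and 21893 FPKM. Of 6 early meiotic markers, 1 was higher, 2 lower and 3 neither. Rhox5 is also transcribed in the epididymis. The 7 epididymis markers summed to at most 2.44 FPKM in a library, with Lcn5, Lcn8 and Gpx5 at 0 throughout, and most of the sum was Cst11 at d12 (1.71 FPKM) and Rnase10 at d24 and in adult testis (2.19 and 1.62 FPKM).

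The remaining 25 Rhox rows give the surroundings of the members. Of these, 7 averaged 1 FPKM or more, 16 were under 1 FPKM in every library, and 5 were at 0 in every library. All 8 Rhox2 genes together summed to 25.7, 22.4, 8.20 and 4.02 FPKM from d12 to adult, and the 4 of them past the filter were lower in adult testis than at d12. Rhox2a was the highest of them (11.6, 11.1, 3.78 and 2.58 FPKM). The 6 Rhox3 genes had the opposite course, with sums of 4.47, 2.82, 12.9 and 15.4 FPKM, and of the 3 past the filter 2 were higher and 1 was neither. Rhox3c was the highest of them (2.31, 1.35, 5.26 and 8.51 FPKM). Rhox4 genes summed to 2.06, 1.80, 0.255 and 0.126 FPKM. For the counts of Rhox2 and Rhox3 genes, the shares among all X-linked genes past the filter were 23.8% higher and 55.8% lower from d12 to adult.

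The values of single Rhox2, Rhox3 and Rhox4 genes are uncertain because these genes are near copies of each other. A median of 72.8% of the 50-base stretches of Rhox2 genes, 76.8% of those of Rhox3 genes and 88.7% of those of Rhox4 genes occur elsewhere in the genome. Of the other genes in the beta and gamma groups, Rhox6, Rhox7, Rhox9 and Rhox12 were at or below 1.302 FPKM in every library. Rhox7 was 0.894, 1.302, 0.324 and 0.114 FPKM, and Rhox9 was 0.996, 0.453, 0.103 and 0.254 FPKM.

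**Figure D4:**
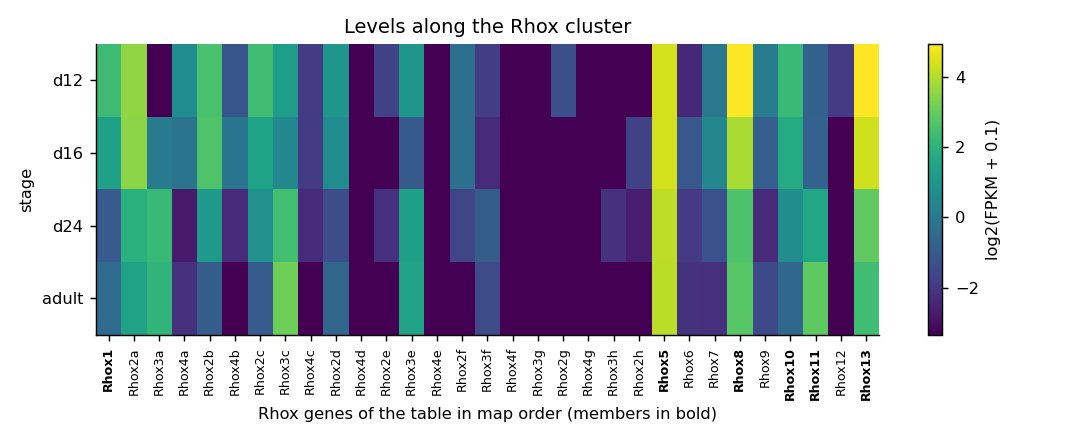
Level of all 31 Rhox rows as log2(FPKM + 0.1), coloured from low (dark) to high (yellow), with genes in the order of the X chromosome from left to right, members in bold, and the 4 stages (1 library each) from top to bottom. Rhox5, Rhox8 and Rhox13 are the brightest columns at d12, and Rhox3c and Rhox11 are brighter at d24 and adult than at d12.

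Genes beside the cluster did not share 1 course. Before Rhox1, at a distance of 2762 bp, Gm9 was 0.384, 0.289, 3.20 and 9.24 FPKM, and Akap14, an anchoring protein gene 44961 bp away, was 0.0446, 0, 13.5 and 24.5 FPKM. Ndufa1, a subunit of respiratory complex I, was 25.1, 37.0, 15.3 and 13.6 FPKM. After Rhox13, at 59826 bp, Zbtb33 was 6.48, 4.33, 1.93 and 1.18 FPKM, and Lamp2, a lysosomal membrane protein gene, was 45.6, 34.6, 22.3 and 33.1 FPKM. Both higher and lower values in adult testis were thus found within the cluster and next to it.

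For each member, the genes with the most similar course were ranked by the Euclidean distance of mean-centred log2(FPKM + 0.1) over the 4 libraries, among the 13901 genes. Closest to Rhox13 was Tex11 at a distance of 0.0530, followed by Pdpn and Zfp9. Closest to Rhox8 was Gm5643 (0.128), followed by Ptprd and Lbh. Rhox5 was followed by Iws1 (0.0133), Rpl19 (0.0339), a ribosomal protein gene, and Dnajc8 (0.0342). For Rhox10 they were Csdc2 (0.0749), Abcg1 and Efemp2, for Rhox11 Rbm47 (0.0782), Spred3 and Usp25, and for Rhox1 Tceal5 (0.0801), Rmrp and B130024G19Rik. With 4 libraries these distances describe courses only.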

How the data were processed

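Total RNA of whole testis was sequenced as strand-specific paired-end libraries (ScriptSeq v2), 1 per stage. The 4 H3K27Ac ChIP-seq samples were not analysed here. The authors aligned with TopHat2 (2.1.0), run on Bowtie (1.1.2), against GRCm38/mm10 and kept 1 alignment per pair. The FPKM values of RefSeq genes that they deposited come from Cuffdiff (Cufflinks 2.2.1), with its corrections for multi-reads and sequence bias switched on. The scaling between libraries is not given in the sources used here, and a sum of FPKM that differs between libraries (283580, 307964, 472726 and 659202 from d12 to adult) means that fold changes rest on that scaling.

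Fragments were recovered from FPKM times transcript length as multiples of the value of 1 fragment, which was 0.0799, 0.0800, 0.0455 and 0.112 FPKM for a transcript of 1 kb from d12 to adult. Recovered fragments of genes with 1 curated transcript summed to 4580260 at d12 and 6044280 in adult testis. The value of 1 fragment was thus higher in the adult library although more fragments were recovered there. The limit of 3 fragments is 0.240, 0.240, 0.137 and 0.336 FPKM. Among genes with 1 curated transcript, 90.5% to 91.1% of values up to 20 fragments lay within 0.05 of a whole number. Of the members' 24 values, 16 lay within 0.1 of a whole number, and for Rhox5 and Rhox8 the nearest whole number was used. Intervals are exact 95% Poisson intervals for levels, exact Clopper-Pearson intervals for ratios of 2 values and delta method intervals for the summed ratio. They cover counting error only.

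Differences use log2(FPKM + 0.1), which understates changes of low genes. No test was made, since each stage has 1 library. The named genes are the 6 members, the other Rhox rows, the genes of the lists, the 5 flanking genes on each side and the 3 genes with the most similar course to each member. A gene of the list of Rhox5 regulators is not reported here. The members and lists were chosen with earlier results of these data known. Alternatives were 2 rescalings, a pseudocount of 1 FPKM, no filter on low values, single pairs and geometric means for the ratio, and other list summaries. Python 3.11.15, numpy 2.4.6, pandas 2.3.3, scipy 1.17.1 and matplotlib 3.10.9 were used, and the recovery of fragments and the fold counts were tested on simulated data.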

Additional observations from a re-analysis of the deposited data

How the results depend on the processing

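Of 132 alternative values over 40 results, 80 stayed within their limits, 52 moved and 0 were labelled reversed. Limits were the spread that counting error allows or, for counts of genes, a factor of 1.5. These labels do not mark a ratio that passes 1. Rhox5 over Rhox13 was 0.678 at d12, against 1.46 for the sums, and Rhox8 over Rhox13 was 0.731 at d16, against 1.51. Nor do they mark that, from d16 to d24 and from d12 to adult, higher genes outnumbered lower ones as deposited but not under either rescaling. Of the members' 24 differences between stages, 9 moved with libraries rescaled to the same FPKM sum and 6 with division by the upper quartile, all of Rhox5, Rhox8 or Rhox13, and 0 with a pseudocount of 1 FPKM. Rescaling adds a constant to every log2 difference of a pair of libraries, and the median of all genes from d12 to adult became -1.02 with the same sum and -0.73 with the upper quartile, from 0.20. Both rescalings put Rhox5 past the 2-fold limit from d12 to adult (-1.50 and -1.21, from -0.28) and Rhox1 past it from d12 to d16 (-1.06 and -1.09, from -0.94). The same sum put Rhox11 inside it from d24 to adult (0.79, from 1.27), and a pseudocount of 1 FPKM put Rhox10 inside it from d16 to d24 (-0.74, from -1.02) and from d24 to adult (-0.69, from -1.26). The sign turned for Rhox5 and Rhox11 from d12 to d16 and for Rhox8 from d24 to adult under both rescalings, all differences that lie within counting error.

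Lower genes from d12 to d16 were 510 as deposited, 810 with the upper quartile, 131 with a pseudocount of 1 FPKM and 1411 with no filter. Lower genes from d16 to d24 were 1174, and 4263 with the same sum, 3739 with the upper quartile, 568 with the pseudocount and 1931 with no filter. From d24 to adult, 1578 genes were higher (917 with the same sum, 1181 with the upper quartile, 2672 with no filter) and 306 lower (1531 with the same sum, 653 with the upper quartile, 58 with the pseudocount, 926 with no filter). From d12 to d16, 1753 genes were higher as deposited, 1572 with the same sum and 1528 with the upper quartile. From d12 to adult, 4965 genes were higher (3191 with the same sum) and 3216 lower (6996 with the same sum, 6147 with the upper quartile).

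The Sertoli to germ cell ratio needs no scaling but depends on the pair. At d12 it was 1.46 for the sums, 2.11 for geometric means, 4.38 for Rhox5 over Rhox10, 0.678 for Rhox5 over Rhox13, 6.55 for Rhox8 over Rhox10 and 1.013 for Rhox8 over Rhox13. At d16 the same order gave 1.51, 2.14, 6.25, 1.02, 4.47 and 0.731. At d24, the sums gave 2.59, Rhox5 over Rhox10 11.0, Rhox8 over Rhox10 3.90 and Rhox8 over Rhox13 0.821. In adult testis they gave 4.06, geometric means 6.08, Rhox5 over Rhox10 28.3, Rhox8 over Rhox10 11.5 and Rhox8 over Rhox13 1.31. The adult share of Rhox10 in the spermatogonia list, relative to d12, was 0.142 for the sum, 0.563 for the median of the list and 0.571 without Dmrtb1. That of Rhox13 was 0.193, 0.766 and 0.777. Against the sum of the early meiotic list instead, the relative shares were 0.116 for Rhox10 and 0.157 for Rhox13. Dmrtb1 was left out after the values were seen. The other causes were not tested. No paired analysis was possible because each stage has 1 library. Depth limits Rhox10 and Rhox1 in adult testis (4 and 5 fragments) and Rhox11 at d12 and d16 (5 fragments each).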
